A study of Mus musculus with 15 samples.

Results

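The liver of mice after gastric bypass (RYGB) was set here against the equally weighted average of 2 sham groups. Of these groups, 1 was fed freely and 1 was held at the weight of the bypass mice. The aim was to look for differences beyond those of body weight. The contrast does not show that a gene differs from each sham group, or that body weight plays no part. Genes of interest were those whose RYGB mean lay above both sham means or below both. Of 22180 genes tested, 14498 (65.4%) met that condition on their means alone, 7199 above and 7299 below, a count that the choice of genes fixes and that carries no test. Of these, 1000 also passed a limma test of the averaged contrast at a Benjamini-Hochberg adjusted p under 0.05 and are called members below.

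All 15 mice were males of the ApoE*3Leiden.CETP strain, which carries human lipoprotein transgenes, and each gave 1 liver array. They were 9 to 12 weeks old at the outset, acclimated for 2 weeks, ate a diet of 60% fat and 0.25% cholesterol for 6 weeks before the operation, and were killed 20 days after it. RYGB (Roux-en-Y gastric bypass, n = 6) joins a small stomach pouch to the jejunum. Sham AL mice (n = 5) had a sham operation and ate ad libitum, and BWm mice (n = 4) had a sham operation and were weight-matched to RYGB. Transgenes, sex and diet were therefore shared by every group, mice without an operation were not part of the set, and how the BWm weight was held is not given in the sources used here. The titles number the arrays as biological replicates.

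A hepatocyte makes most plasma proteins, and it folds them in the endoplasmic reticulum (ER), where unfolded protein switches on chaperone genes through the factors ATF6 and XBP1. Shortage of amino acids or ER stress raises the factor ATF4, oxidants release the factor NRF2, and a fall in ER cholesterol releases SREBP2, and each of these factors drives its own set of genes. The same cell stores triglyceride in droplets, burns fatty acids under the receptor PPARalpha, oxidises drugs with cytochromes P450, and secretes hepcidin, the hormone that limits iron uptake.

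Values are log2 signals, so a difference of 1 is a 2-fold change. Array medians lay between 3.89 and 4.02 and precision is set by the number of arrays; the median standard error (SE) of the averaged contrast was 0.111. The hepatocyte marker list, with means of 11.02 to 11.13 on the RYGB arrays, 10.93 to 11.12 in Sham AL and 11.15 to 11.27 in BWm, was the brightest cell type list, and 0 of its 16 measured genes were called. The array of Sham AL replicate 4 stood apart: 662 genes lay over 1 log2 unit from the rest of its group, against 53 to 128 on each of the other 14 arrays. Adrenal markers averaged 8.98 on that array and at most 3.94 on any other sham array, and adipocyte markers 8.21 against at most 5.42. In whole liver, fewer cells of a type and less RNA per cell cannot be told apart.

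Against the average of both sham groups, called genes were all higher after bypass on the lists for ER protein folding (18 of 24), the ATF4 response (17 of 32), the NRF2 response (16 of 27) and cholesterol synthesis (12 of 19). Lower genes were fewer. On some lists they stood beside higher ones, and on others alone, as among lipoprotein genes (4 lower and 0 higher of 26). The largest lower share was that of drug-metabolizing genes (8 lower and 1 higher of 40). Members numbered 1000 of 22180 genes (4.51%), 721 of them higher (3.25%) and 279 lower (1.26%) after bypass. The median difference was 0.51 among the higher and -0.50 among the lower members, against -0.004 over all genes tested. A change of at least 2-fold was seen in 64 higher and 33 lower members. In 147 of the higher members all 6 RYGB arrays lay above all 9 sham arrays, against 161 of all genes (0.726%), and in 42 lower members all 6 lay below, against 49 of all genes (0.221%). Leaving out each array in turn gave 484 to 767 higher and 182 to 342 lower members, the lower count moving by over 1.5 times without RYGB replicate 4 (185) or RYGB replicate 6 (182), and 545 members were called in all 15 such fits.

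Both sham groups have equal weight in the averaged contrast, but most members lay at unequal distances from them. The RYGB mean lay nearer Sham AL than BWm in 588 of the 721 higher members (81.6%, against 60.7% of all genes that lay above both sham means) and in 203 of the 279 lower ones (72.8%, against 53.1%). The median distance of a higher member from its nearer sham mean was 0.36 and from its farther one 0.67. Tested singly in the same fit, 173 members passed against both sham groups, 84 against Sham AL only, 631 against BWm only and 112 against neither. Of all genes, 1.38% passed against Sham AL (0.938% higher, 0.442% lower in RYGB), 6.36% against BWm (4.02% higher, 2.34% lower), and 2.84% between the sham groups (1.53% higher, 1.3% lower in BWm). Of the members, 176 also differed between BWm and Sham AL.

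**Figure D1:**
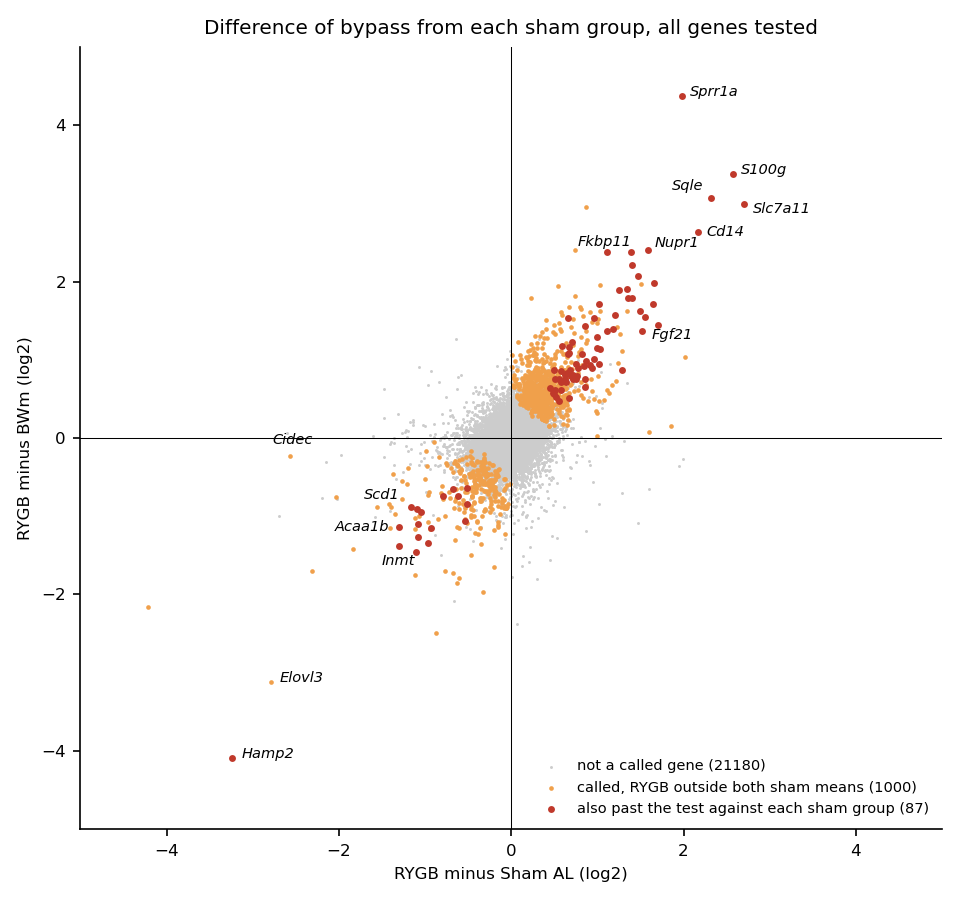
Each of 22180 genes by its log2 difference of RYGB from Sham AL (horizontal) and from BWm (vertical). The 1000 members (orange) lie in the upper right and lower left corners that the rule takes, more of them away from the horizontal axis than from the vertical one, and the 87 that also passed the test against each sham group (red) lie away from both axes.

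A stricter rule took the larger p of both single comparisons for each gene and adjusted it over all genes. It was passed by 87 genes (0.392%), 70 higher (0.316%) and 17 lower (0.0766%), with medians of 0.93 and -1.02. In 53 of the 70 and 15 of the 17, no RYGB array overlapped any sham array, and the sham groups differed from each other in 6 of the 87. This count depended on single arrays. When 1 bypass array was left out, the higher and lower counts were 121 and 33 (replicate 1), 37 and 12 (replicate 2), 44 and 12 (replicate 3), 36 and 9 (replicate 4), 56 and 13 (replicate 5) or 33 and 9 (replicate 6). When 1 Sham AL array was left out, they were 33 and 10 (replicate 1), 33 and 7 (replicate 2), 38 and 11 (replicate 3), 80 and 25 (replicate 4) or 36 and 7 (replicate 5). In all 15 of these fits 29 genes passed, 23 higher and 6 lower. Among the 23 were S100g, Slc7a11, Cd14, Fkbp11, Atf3, Mtmr11, Trib3, Creld2 and Sqstm1, and among the 6 were Hamp2, Acaa1b, Scd1, Cyp3a44 and Chpt1. The log2 differences of Spink1, a trypsin inhibitor (1.55 ± 0.21 SE), Cyb5r1, a cytochrome b5 reductase (1.07 ± 0.14), and Aprt, which salvages adenine (0.76 ± 0.10), were also among the 23, and were picked with their values in view.

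Protein folding genes of the ER were the list with the largest called share. Of 24 measured chaperones, folding enzymes and degradation factors, 18 were higher (75%) and 0 lower, with a median of 0.57. By the mean of the list, the 6 RYGB arrays lay between 9.36 and 9.69, the Sham AL arrays between 9.10 and 9.35 and the BWm arrays between 8.62 and 8.97, so the groups did not overlap, by 0.01 for the nearest pair. The sham groups were apart as well, with 11 of the 24 lower in BWm than in Sham AL. Of the list, 19 genes passed against BWm, 6 against Sham AL, and 2 the stricter rule.

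Creld2, an ER folding factor that is secreted under stress, measured 9.41 at the lowest, 9.80 at the median and 9.97 at the highest RYGB array. Its Sham AL arrays read 8.77, 8.75, 8.75, 8.63 and 9.11 and its BWm arrays 8.79, 7.91, 8.21 and 7.99. All 6 RYGB arrays were above all 9 sham arrays, a 2.38-fold difference (log2 1.25 ± 0.13 SE, limma adjusted p = 6.3e-05), and BWm replicate 1 was level with Sham AL. Fkbp11, an ER prolyl isomerase that was not on the list, measured 8.10 to 8.67 with a median of 8.48 after bypass. Its Sham AL values were 7.09, 6.69, 6.96, 7.15 and 7.35 and its BWm values 6.79, 5.62, 5.78 and 6.04. Its spread within RYGB was narrow (SD 0.19, n = 6) beside the 3.7-fold difference (log2 1.89 ± 0.15, adjusted p = 5e-06), and no arrays overlapped. Hspa5, the main ER chaperone BiP, was different in kind: RYGB measured 9.08, 9.35 and 9.82 at the lowest, median and highest array, Sham AL 8.97, 9.12, 9.03, 8.94 and 9.19, and BWm 8.53, 8.11, 7.97 and 7.97. The averaged difference was 0.83 ± 0.12 (adjusted p = 0.00063), made of 0.38 against Sham AL (adjusted p = 0.23) and 1.28 against BWm (adjusted p = 7.4e-05). RYGB replicate 1 overlapped Sham AL.

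Others of the list followed either pattern. Sdf2l1, a partner of BiP, differed by 1.28 ± 0.14 and Dnajb9, another, by 0.72 ± 0.10, and both were separated from every sham array. Hyou1 (0.96 ± 0.12), Manf (0.90 ± 0.12) and Pdia6 (0.60 ± 0.12) passed against BWm and not against Sham AL. Downstream of folding, 20 of 36 genes of ER import and ER-to-Golgi transport were higher and 0 lower (median 0.33). Of the 36, 25 passed against BWm and 1 against Sham AL, and 10 were lower in BWm than in Sham AL. Between 13 and 20 of them were called when single arrays were left out, and 16 without Sham AL replicate 4. Tmed3, a receptor for cargo that leaves the ER, differed by 0.88 ± 0.11, and Sec61a1, the channel through which proteins enter the ER, by 0.55 ± 0.08. Sec23b, a coat protein of transport vesicles, differed by 0.66 ± 0.09, with 0.20 against Sham AL and 1.11 against BWm. Ddost, a subunit of the enzyme that attaches sugar chains (0.63 ± 0.08), and Ppib, a prolyl isomerase (0.54 ± 0.08), neither on the lists and both chosen after their values were seen, passed the stricter rule over all arrays, Ddost in 13 and Ppib in 0 of the 15 fits that left out 1. Of 31 proteasome subunits 3 were higher, and 1 to 3 when single arrays were left out.

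The promoters of folding genes are shown because many carry the ER stress response element, the sequence that ATF6 and XBP1 read with the factor NF-Y. The element searched was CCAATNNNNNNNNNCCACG on both strands, in RefSeq windows (GRCm38.p6) from 250 bases before to 50 bases after a start. It stood in 8 of the 15 called folding genes with a window (53.3%), and in 29 of 16990 genes with a window (0.171%). The list was written as folding genes, so its share describes the list and not the calls. Canx and Derl3, on the list but not called (limma adjusted p = 0.057 and 0.072), also held the element. Of those 29 genes, 9 were higher and 0 lower after bypass, and 8 of the 9 are the folding genes just counted, so only Alg12, a mannosyltransferase of the ER, adds to them. Its difference (0.75 ± 0.20, adjusted p = 0.036) missed the threshold in 10 of the 15 fits that left out an array, with an adjusted p of up to 0.099. A match describes these letters and is not evidence of binding. Capitals mark the element in 80 bases upstream of the start, 5′ to 3′ on the gene's strand. Creld2 is at chr15:88819490-88819569 on the plus strand, Hspa5 at chr2:34771995-34772074 on the plus strand and Syvn1, a ubiquitin ligase that removes misfolded protein (0.68 ± 0.12), at chr19:6046496-6046575 on the plus strand.
Creld2: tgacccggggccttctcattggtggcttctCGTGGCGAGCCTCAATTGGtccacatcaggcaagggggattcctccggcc
Hspa5: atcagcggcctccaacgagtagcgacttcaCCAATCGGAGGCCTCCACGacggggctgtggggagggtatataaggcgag
Syvn1: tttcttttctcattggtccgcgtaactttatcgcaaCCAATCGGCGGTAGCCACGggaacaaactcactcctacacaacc

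**Figure D2:**
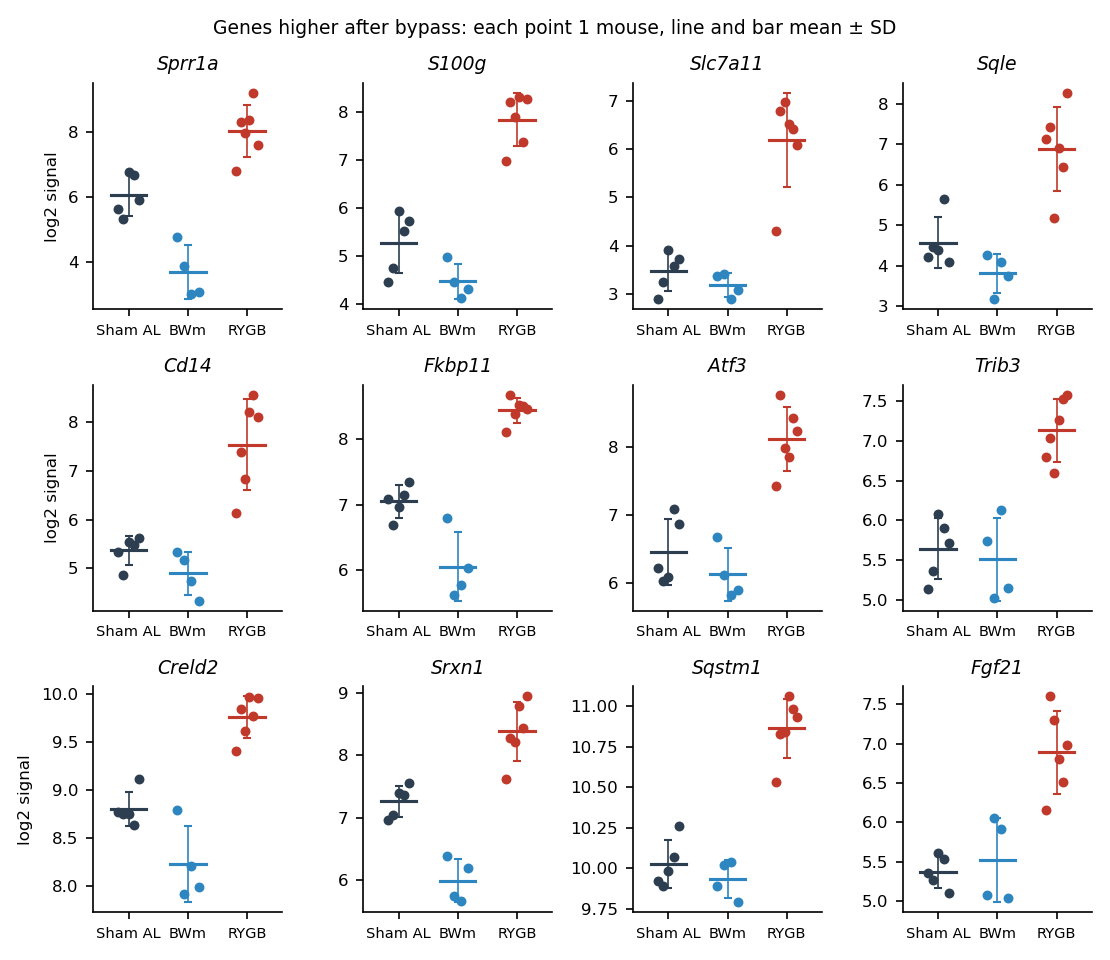
Log2 signal of 12 genes that were higher after bypass, 1 point per mouse, with the mean and SD of Sham AL (n = 5), BWm (n = 4) and RYGB (n = 6). RYGB points lie above every sham point in each panel but that of Sqle, where the lowest RYGB array (5.17) lies below Sham AL replicate 4 (5.66).

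Genes of the ATF4 response, which imports and makes amino acids and charges transfer RNA, were higher in 17 of 32 cases and lower in 0 (median 0.51), and 8 passed the stricter rule, more than on any other list. Against Sham AL 12 passed and against BWm 17. Between 14 and 20 were called when single arrays were left out, with 20 and a median of 0.61 without Sham AL replicate 4. By the list mean, 5 RYGB arrays lay above every sham array (6.55 to 6.71 against at most 6.29), and RYGB replicate 1 (6.25) lay below Sham AL replicate 4 (6.29). The sham groups were close for this list, with a median of -0.11 for BWm minus Sham AL and 2 genes lower in BWm. Of the 32 genes, 23 had a RYGB mean above both sham means and 7 below both. Genes of the list that were not called included Phgdh (0.15), Sesn2 (0.11), Shmt2 (-0.03), Chac1 (-0.19), Stc2 (-0.26), Ddit4 (-0.31), Cebpb (-0.33) and Vldlr (-0.44).

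Slc7a11, which imports cystine and is a target of both ATF4 and NRF2, measured 4.29, 6.46 and 6.98 at the lowest, median and highest RYGB array. Its Sham AL arrays read 2.90, 3.24, 3.91, 3.58 and 3.72 and its BWm arrays 3.36, 3.41, 2.89 and 3.08. No arrays overlapped, 1 RYGB mouse (replicate 1) was far below the other 5 (6.08 to 6.98), and the difference was 7.21-fold (log2 2.85 ± 0.30, adjusted p = 6.3e-05). Nearly all sham values were under the lowest array median, a range in which the files do not separate signal from background, which leaves the fold imprecise, and a dimmer transcript cluster of the gene differed by 0.58. Atf3, a stress-induced transcription factor, measured 7.43 to 8.77 with a median of 8.10 after bypass. Sham AL read 6.22, 6.02, 6.09, 7.09 and 6.86, and BWm 6.68, 6.12, 5.82 and 5.89. The difference was 3.54-fold (log2 1.82 ± 0.21, adjusted p = 8.9e-05) with no overlap. Trib3, a pseudokinase induced with it, measured 6.60 to 7.58 (median 7.15) after bypass, 5.14 to 6.08 in Sham AL and 5.02 to 6.13 in BWm, a 2.94-fold difference (log2 1.56 ± 0.19, adjusted p = 0.0002).

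Ddit3, the factor CHOP (1.59 ± 0.24), and Nupr1, a stress-induced nuclear protein (2.00 ± 0.26), passed the stricter rule over all arrays but in 9 and 10 of the 15 fits that left out 1. Asns, which makes asparagine (1.30 ± 0.24), Psat1 of serine synthesis (1.12 ± 0.19), and the transfer RNA ligases Gars (0.69 ± 0.10) and Sars (0.65 ± 0.10) were members as well. Fgf21, a hormone that the stressed or fasted liver secretes, measured 6.15 to 7.60 with a median of 6.89 after bypass. It read 5.36, 5.27, 5.61, 5.53 and 5.10 in Sham AL and 5.08, 6.05, 5.92 and 5.04 in BWm. Every RYGB array was above every sham array, a 2.71-fold difference (log2 1.44 ± 0.20, adjusted p = 0.00048), and the margin to BWm replicate 2 was 0.10.

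The element to which ATF4 binds with a C/EBP partner was searched as TGATGNAA on both strands of the same windows. It was found in 6 of the 14 called ATF4 genes with a window (42.9%) and in 666 of 16990 genes (3.92%), of which 3.6% were higher after bypass, close to the 3.4% of all. The list was written as genes of the ATF4 response, so its share describes the list and not the calls. Capitals mark the matches in 80 bases upstream of the start. Slc7a11, with 2 matches, is at chr3:50443614-50443693, Atf3 at chr1:191183394-191183473 and Nupr1 at chr7:126625531-126625610, all on the minus strand.
Slc7a11: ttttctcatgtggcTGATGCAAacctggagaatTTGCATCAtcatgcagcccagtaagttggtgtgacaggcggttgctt
Atf3: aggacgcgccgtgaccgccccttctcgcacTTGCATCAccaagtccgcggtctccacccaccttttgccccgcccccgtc
Nupr1: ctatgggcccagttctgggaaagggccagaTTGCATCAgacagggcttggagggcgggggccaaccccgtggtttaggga

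Antioxidant genes driven by NRF2, with the pentose phosphate enzymes that feed them, were higher in 16 of 27 cases and lower in 0 (median 0.61), and 4 passed the stricter rule. Against Sham AL 9 passed and against BWm 15. By the list mean, RYGB replicate 1 (8.52) was within the Sham AL range (8.40 to 8.66). The remaining 5 bypass mice (9.01 to 9.26) exceeded all 9 sham mice. Srxn1, which repairs oxidised peroxiredoxins, measured 7.62, 8.36 and 8.94 at the lowest, median and highest RYGB array. Sham AL read 6.96, 7.04, 7.39, 7.36 and 7.55 and BWm 6.38, 5.74, 5.67 and 6.19. The 3 groups formed steps without overlap, BWm lowest, and the difference was 3.37-fold (log2 1.75 ± 0.17, adjusted p = 5.6e-05). Sqstm1, the autophagy receptor p62, which also holds back the inhibitor of NRF2, showed no such step: RYGB measured 10.53 to 11.06 (median 10.88), Sham AL 9.89 to 10.26 and BWm 9.79 to 10.04. Its 1.84-fold difference (log2 0.88 ± 0.09, adjusted p = 6.3e-05) was 0.84 against Sham AL and 0.93 against BWm.

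The quinone reductase Nqo1 (1.33 ± 0.20), the glutathione transferase Gstm3 (1.24 ± 0.24), the pentose phosphate enzyme Pgd (1.17 ± 0.18) and Gclc, which makes the precursor of glutathione (0.61 ± 0.11), were members. Abcc4, a pump that exports organic anions from the hepatocyte, measured 6.02, 7.0 and 7.68 at the lowest, median and highest RYGB array, 4.78 to 6.17 in Sham AL and 4.56 to 5.41 in BWm. RYGB replicate 1 overlapped Sham AL, and the difference was 3.42-fold (log2 1.77 ± 0.24, adjusted p = 0.00037). Hmox1 (-0.04) and Gclm (0.26), textbook targets of the same factor, were not called. Txnrd1, thioredoxin reductase, was at 0.63 ± 0.11.

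Cholesterol synthesis genes were higher in 12 of 19 measured cases and lower in 0, with a median of 0.76, the largest of the 30 pathway lists. Against Sham AL 6 passed and against BWm 13. The called genes lay at early and late steps of the path, with uncalled steps among them. Called were Hmgcs1, which makes an early precursor (1.19 ± 0.23), Mvk (0.91 ± 0.16), Fdps (1.50 ± 0.24), Fdft1 (0.76 ± 0.17), Sqle (2.69 ± 0.35), Lss (0.95 ± 0.15), Cyp51 (1.81 ± 0.25) and Nsdhl (1.63 ± 0.23), beside the regulator Srebf2 itself (0.54 ± 0.12). Measured but not called were Pmvk (0.29), Tm7sf2 (0.39), Hsd17b7 (0.58), Ebp (-0.04), Sc5d (0.20), Stard4 (0.54) and Insig1 (-0.08). Some members of the pathway were not analysed here. Sqle, the squalene epoxidase, measured 5.17, 7.02 and 8.26 at the lowest, median and highest RYGB array. Its Sham AL arrays read 4.22, 4.47, 4.4, 5.66 and 4.10 and its BWm arrays 4.26, 3.18, 4.09 and 3.74. RYGB replicate 3 lay below Sham AL replicate 4, the other 5 RYGB arrays (6.44 and above) lay above every sham array, and the difference was 6.47-fold (adjusted p = 0.00026).

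Bypass mice were uneven in this list. Its mean was 8.36, 8.53 and 8.55 on RYGB replicates 1, 2 and 6, and 7.53, 7.95 and 7.70 on replicates 3, 4 and 5, against 7.09 to 7.68 in Sham AL and 6.74 to 7.35 in BWm. Replicate 1, the lowest bypass mouse for ATF4 and NRF2 genes, was among the highest here. Sqle, Cyp51 and Nsdhl passed the stricter rule over all arrays, Sqle in 14, Nsdhl in 8 and Cyp51 in 4 of the 15 fits that left out an array. The sterol response element, searched as TCACCCCA on both strands, was present in 2 of 9 called genes with a window (22.2%) and in 1.68% of all. The list was written as cholesterol genes, so its share describes the list and not the calls. The element is shown in capitals for Hmgcs1 at chr13:119690184-119690263 on the plus strand.
Hmgcs1: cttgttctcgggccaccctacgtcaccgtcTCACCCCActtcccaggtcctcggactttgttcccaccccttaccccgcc

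**Figure D3:**
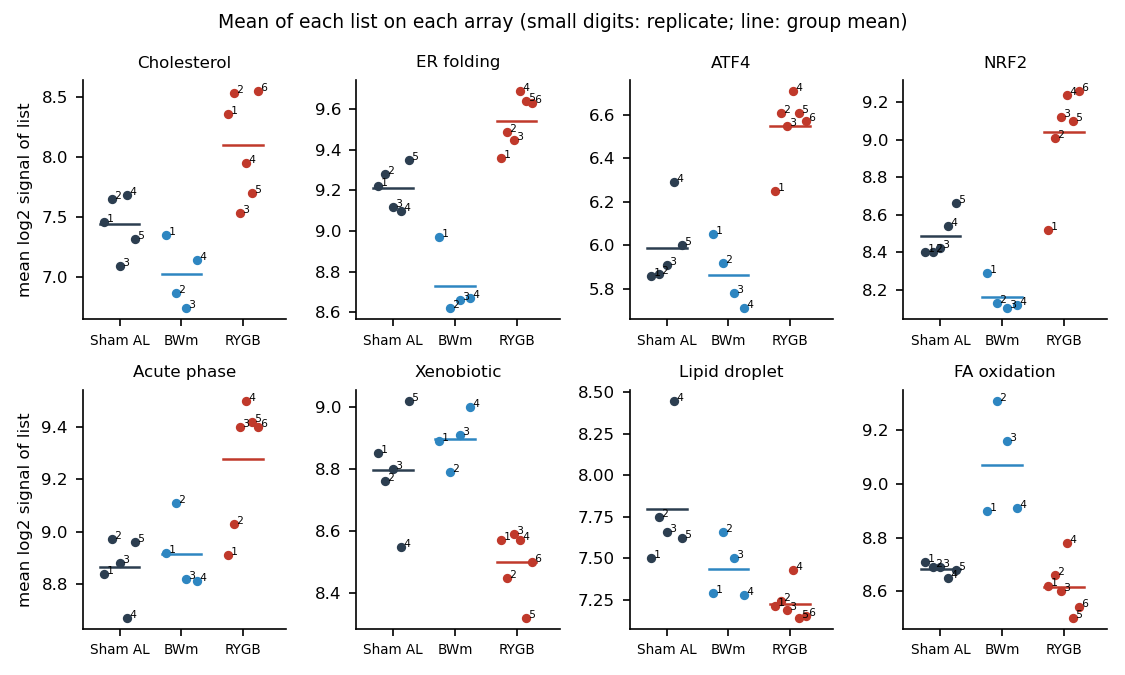
Mean log2 signal of the measured genes of 8 lists on each array (points, with the replicate number) and group means (lines). RYGB replicate 1 is the lowest bypass array for ATF4 and NRF2 genes and among the highest for cholesterol genes, and Sham AL replicate 4 is the highest array for lipid droplet genes (8.45).

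A list of keratins, S100 proteins and related genes held the largest rises of the naming rule, Sprr1a and S100g. The list was written with earlier results of these data known, so neither this nor its called share is a test. On it 11 of 27 were higher and 0 lower (median 0.50), with 3 past the test against Sham AL and 11 against BWm. By the list mean, 5 RYGB arrays lay above every sham array. The keratins Krt7 (-0.06), Krt19 (0.16), Krt20 (0.25) and Krt23 (-0.48) were not called. Sprr1a, a cornified envelope protein induced in injured epithelia, measured 6.80, 8.14 and 9.20 at the lowest, median and highest RYGB array. Sham AL read 5.62, 5.32, 6.77, 6.68 and 5.92 and BWm 4.77, 3.86, 3.00 and 3.07. The groups formed steps, with BWm 2.39 below Sham AL (adjusted p = 0.0047), and the 9.03-fold averaged difference (log2 3.17 ± 0.34, adjusted p = 6.3e-05) therefore depends on how both sham groups are weighed: 1.98 against Sham AL and 4.37 against BWm. The lowest RYGB array cleared the highest Sham AL array by 0.03. Most BWm values were under the lowest array median (3.89), which leaves the fold imprecise. Sprr1a passed the stricter rule over all arrays, but in 7 of the 15 fits that left out 1.

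S100g, calbindin-D9k, which binds calcium in gut cells, measured 6.99 to 8.33 with a median of 8.06 after bypass. It read 4.46, 4.75, 5.94, 5.52 and 5.74 in Sham AL and 4.99, 4.46, 4.13 and 4.31 in BWm. Its arrays did not overlap, by over 1 log2 unit, and the difference was 7.85-fold (log2 2.97 ± 0.24, adjusted p = 5e-06). Markers of intestinal epithelium showed no matching rise, with 0 of 16 higher and means of 4.34 to 4.59 in RYGB, 4.38 to 4.63 in Sham AL and 4.53 to 4.79 in BWm. The hepatocyte keratins Krt8 (0.97 ± 0.14) and Krt18 (1.08 ± 0.13) and the membrane-binding protein Anxa2 (1.01 ± 0.22) were higher in the averaged contrast, with 0.50, 0.59 and 0.23 against Sham AL (adjusted p = 0.16, 0.067 and 0.76). BWm was lower than Sham AL for 7 genes of the list.

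Sensors of bacterial products and acute phase proteins were higher in 7 of 30 cases and lower in 0 (median 0.24), and in 4 to 8 when single arrays were left out. Cd14, the receptor that hands lipopolysaccharide to TLR4, measured 6.14, 7.75 and 8.56 at the lowest, median and highest RYGB array. Sham AL read 5.33, 4.87, 5.54, 5.49 and 5.62 and BWm 5.33, 5.18, 4.75 and 4.34. No arrays overlapped, and the difference was 5.28-fold (log2 2.40 ± 0.29, adjusted p = 0.0002). Apcs, serum amyloid P, differed by 1.58 ± 0.24, with 5 of 6 RYGB arrays above all sham arrays, and Lcn2, which withholds iron from bacteria, by 1.26 ± 0.28. The fibrinogen genes Fga (0.05), Fgb (0.06) and Fgg (0.00) were not called, nor was Crp (0.00).

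Most immune cell markers did not pass the test, although the means of some lists were higher in RYGB. By the list mean, neutrophil markers measured 3.44 to 4.28 in RYGB, 3.32 to 3.67 in Sham AL and 3.29 to 3.62 in BWm, with 3 RYGB arrays above every sham array. None of the 14 was called (median 0.37), and S100a8 was at 0.89 ± 0.25 (adjusted p = 0.053). Kupffer cell markers measured 7.61 to 8.12, 7.24 to 7.74 and 7.39 to 7.95, with 4 of 15 higher (median 0.31), and 1 to 6 when single arrays were left out. Adgre1, the macrophage antigen F4/80, differed by 0.54 ± 0.12 (adjusted p = 0.014), and Cd68 (0.56), Csf1r (0.49) and C1qc (0.45) were also called. Clec4f (0.17 ± 0.13), Vsig4 (0.30 ± 0.11) and Timd4 (0.21 ± 0.17), which define resident Kupffer cells, were not called. Their part in the rise of Cd14 and of the acute phase list was not tested. Recruited macrophage markers were higher in 2 of 14 cases and lower in 0 (median 0.28), and higher in 1 to 3 when single arrays were left out. By their list mean, 3 RYGB arrays lay above every sham array. Endothelial markers were lower in 1 of 18 cases and higher in 0. Lymphocyte, stellate cell, bile duct and pancreas markers gave 0 called genes of 16, 18, 12 and 11.

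On other lists a minority of genes was called. DNA replication and mitosis genes were higher in 6 of 30 cases (median 0.34), led by the replication genes Mcm6 (1.01 ± 0.18), Mcm2 (0.72 ± 0.11) and Cdt1 (0.65 ± 0.09), and their list mean was above every sham array on RYGB replicates 2 and 5 only. Of the 30, 9 passed against BWm and 1 against Sham AL. Of 26 interferon-stimulated genes, 5 were higher and 0 lower (2 to 5 without single arrays), led by Usp18, which removes ISG15 from proteins (0.91 ± 0.12), with 9 of the 26 higher against BWm, 1 against Sham AL, and 7 lower in BWm than in Sham AL. Tfrc, the transferrin receptor, measured 6.51 to 8.13 in RYGB, 6.07 to 6.30 in Sham AL and 5.16 to 6.31 in BWm, without overlap (1.06 ± 0.21, adjusted p = 0.0049). Of 15 metallothionein and zinc genes 3 were higher (median 0.07; 1 to 4 when single arrays were left out), among them Slc39a4, a zinc importer (0.90 ± 0.16). Of 24 retinoid genes 2 were higher and 1 lower (median -0.03): Bco1, which splits beta-carotene (0.98 ± 0.14), Rdh11, a retinol dehydrogenase (0.83 ± 0.12), and Retsat on the lower side.

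**Figure D4:**
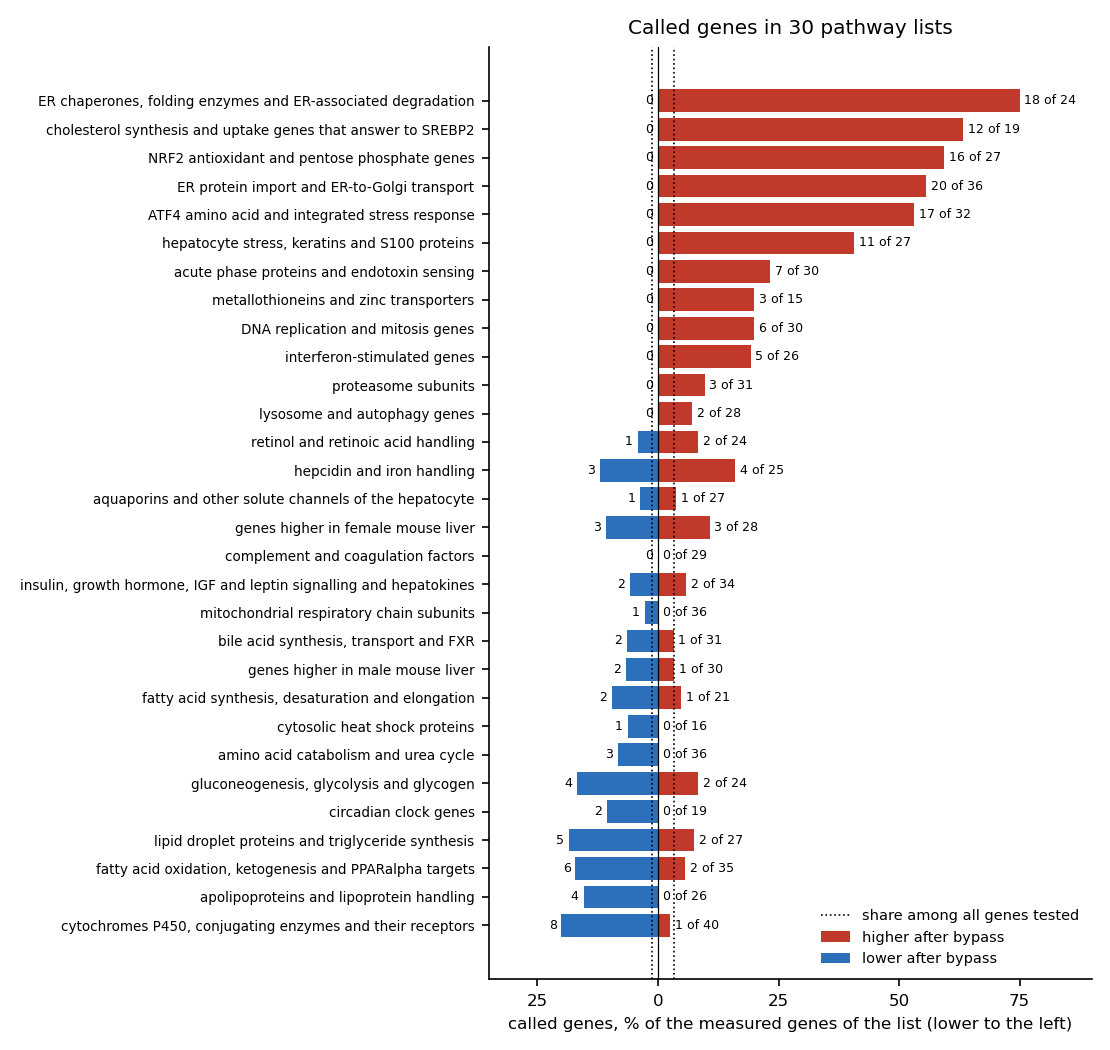
Share of the measured genes of 30 pathway lists called higher (red, right) or lower (blue, left) after bypass, with the counts. Dotted lines mark the shares among all 22180 genes (3.25% higher, 1.26% lower), which folding genes (18 of 24) pass by the widest margin on the right and drug-metabolizing enzymes (8 of 40) on the left.

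The steepest fall was that of Hamp2, a close relative of the hepcidin gene. It measured 3.60, 5.26 and 6.98 at the lowest, median and highest RYGB array. Its Sham AL arrays read 9.00, 7.83, 8.21, 8.31 and 8.53 and its BWm arrays 9.20, 9.06, 9.06 and 9.53. The RYGB arrays were the most scattered (SD 1.22, n = 6), yet none reached a sham array, and the difference was 12.7-fold (log2 -3.67 ± 0.37, adjusted p = 5.6e-05). Hamp, hepcidin itself, was at -0.58 ± 0.20 (adjusted p = 0.12), with -0.83 against Sham AL and -0.34 against BWm. Near-identical copies such as these can share probe signal, so each value can hold a part of the other. Of 25 iron genes, 4 were higher and 3 lower, and 1 to 4 and 1 to 3 when single arrays were left out.

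Most fat storage genes were not called either. Of 27 lipid droplet and triglyceride genes, 5 were lower and 2 higher (median -0.32), with 6 lower, 2 higher and a median of -0.17 without Sham AL replicate 4, whose list mean (8.45) was the highest. By that mean, 5 RYGB arrays (7.14 to 7.24) lay below every sham array (7.28 and above). G0s2, which inhibits the main lipase of the droplet, measured 5.97, 6.58 and 6.94 at the lowest, median and highest RYGB array. Sham AL read 7.42, 7.83, 7.22, 7.72 and 8.01 and BWm 7.52, 8.28, 8.16 and 7.35. No arrays overlapped, and the difference was 2.25-fold (log2 -1.17 ± 0.17, adjusted p = 0.00055). Plin4, a droplet coat protein, was 3.1-fold lower (log2 -1.63 ± 0.26, adjusted p = 0.0012), with BWm replicate 4 (5.47) inside the RYGB range (4.37 to 5.73).

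Opposite signs occurred within the list. Lpin3, a phosphatidate phosphatase (0.97 ± 0.13), and Plin3, a droplet coat protein found in most tissues (0.72 ± 0.11), were higher. Mogat1, which makes diacylglycerol, was at -0.58 ± 0.11 on average, with -0.99 against Sham AL (adjusted p = 0.00055) and -0.17 against BWm (adjusted p = 0.58). Gpat4, which starts triglyceride synthesis (-0.80 ± 0.09), and Chpt1, which makes phosphatidylcholine (-0.77 ± 0.10), lay below every sham array; both are outside the lists and were chosen after their values were seen.

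Among genes of fatty acid synthesis, 2 of 21 were lower and 1 higher. Scd1, the stearoyl-CoA desaturase, measured 10.57, 11.07 and 11.49 at the lowest, median and highest RYGB array. Sham AL read 12.10, 12.32, 12.29, 12.17 and 11.99 and BWm 12.01, 11.95, 11.66 and 11.95. The RYGB arrays lay under all sham arrays, a 2.02-fold difference (log2 -1.02 ± 0.12, adjusted p = 0.00016), and the sham groups differed by -0.28 (adjusted p = 0.42). Fasn, the fatty acid synthase, did not share it: at -0.04 ± 0.24 (adjusted p = 0.96) its RYGB mean lay between the sham means, -0.93 from Sham AL and 0.85 from BWm. Elovl3, an elongase with higher expression in male liver, split the bypass mice, with 9.21 and 8.79 on RYGB replicates 1 and 2 and 5.13 to 6.05 on the other 4. Sham AL read 9.25 to 9.80 and BWm 8.30 to 11.66. The difference was 7.74-fold (log2 -2.95 ± 0.58, adjusted p = 0.0057), with RYGB replicates 1 and 2 inside the sham range.

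Most genes of fatty acid oxidation did not pass the test. Of 35, 6 were lower and 2 higher (median -0.24), and 4 to 10 were lower when single arrays were left out, 10 of them without Sham AL replicate 4. Acaa1b, a peroxisomal thiolase, measured 8.58, 9.06 and 9.64 at the lowest, median and highest RYGB array, 10.47, 10.72, 10.46, 9.97 and 10.37 in Sham AL and 10.35, 10.26, 10.10 and 10.23 in BWm. No arrays overlapped, and the difference was 2.32-fold (log2 -1.22 ± 0.15, adjusted p = 0.00021). Pex11a, which makes peroxisomes divide, was 1.93-fold lower (-0.95 ± 0.17), and Ppara itself was at -0.45 ± 0.10 (adjusted p = 0.014). Fgf21 and the fatty acid hydroxylase Cyp4a31 (1.53 ± 0.28), both known targets of PPARalpha, were the 2 higher genes, and Cpt1a, the gate to mitochondrial oxidation, was at 0.02 ± 0.08.

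Drug-metabolizing genes formed the list with the largest lower share, 8 of 40 lower and 1 higher (median -0.22), and 6 to 9 lower when single arrays were left out. Cyp3a44 measured 3.17, 3.63 and 3.78 at the lowest, median and highest RYGB array, 4.41 to 4.75 in Sham AL and 4.22 to 4.80 in BWm. It was separated from every sham array at a low signal (log2 -0.99 ± 0.11, adjusted p = 1e-04). Cyp3a11, the most studied of these drug oxidases in mice, measured 8.04 to 9.29 with a median of 8.65 after bypass, 9.74, 9.99, 10.57, 9.79 and 10.48 in Sham AL and 9.77, 9.28, 9.61 and 9.72 in BWm. The highest RYGB array passed the lowest BWm array by 0.01, and the difference was 2.2-fold (log2 -1.14 ± 0.18, adjusted p = 0.001). Cyp2c37 was at -1.15 ± 0.17 and Cyp2c29 at -1.16 ± 0.24. Ces1d, a carboxylesterase that also hydrolyses stored triglyceride, measured 7.52 to 8.64 after bypass, 8.64 to 9.31 in Sham AL and 9.19 to 9.25 in BWm (2.05-fold, log2 -1.04 ± 0.15, adjusted p = 0.00047), and Ces1e was at -1.09 ± 0.16. Genes of the Cyp2c, Cyp3a and Ces1 families can share probe signal.

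**Figure D5:**
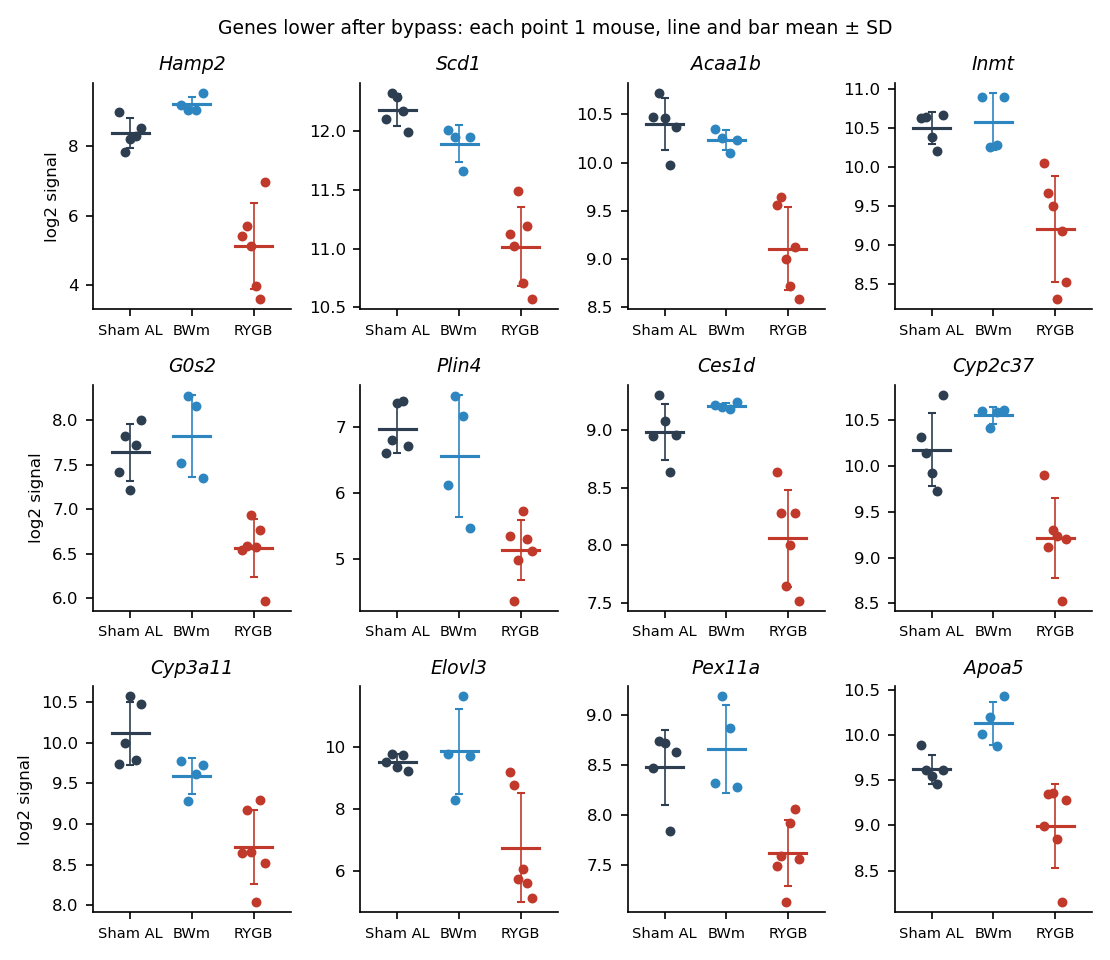
Log2 signal of 12 genes that were lower after bypass, 1 point per mouse, with the mean and SD of Sham AL (n = 5), BWm (n = 4) and RYGB (n = 6). The RYGB points of Hamp2 reach from 3.60 to 6.98 under sham points of 7.83 and above, and in Elovl3 the top 2 RYGB points lie within the sham range.

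Other falls were scattered over lists. Inmt, a methyltransferase for indoles, was 2.53-fold lower (log2 -1.34 ± 0.22, adjusted p = 0.0014) without overlap, RYGB measuring 8.30 to 10.05 and the sham arrays 10.20 to 10.90. Apoa5, which promotes lipolysis of plasma triglyceride, was 1.84-fold lower (-0.88 ± 0.16, adjusted p = 0.0027) and without overlap, although it passed against BWm (-1.13) and not against Sham AL (-0.63, adjusted p = 0.11). Of 26 lipoprotein genes 4 were lower, among them Angptl4, an inhibitor of lipoprotein lipase (-0.62 ± 0.13, with -0.15 against Sham AL and -1.08 against BWm), and 2 to 4 when single arrays were left out. In amino acid breakdown 3 of 36 were lower, Afmid (-0.81 ± 0.13) and Haao (-0.44 ± 0.09) of the path from tryptophan and Prodh (-0.49 ± 0.10), which oxidises proline. All 3 passed against BWm and none against Sham AL (-0.42, -0.33 and -0.27, adjusted p = 0.20, 0.13 and 0.35). Foxo1, a factor that insulin inactivates, was at -0.50 ± 0.10, with -0.19 against Sham AL (adjusted p = 0.52) and -0.81 against BWm. Pdk1, which restrains pyruvate oxidation (-0.68 ± 0.11), and Pde3b, which breaks down cyclic AMP (-0.58 ± 0.09), were members, the last 2 outside the lists and chosen after their values were seen.

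Some members differed little from Sham AL. Cry1, a repressor of the circadian clock, measured 4.81 to 6.06 in RYGB, 5.29 to 5.59 in Sham AL and 6.63 to 7.21 in BWm. Its difference of -0.93 ± 0.16 (adjusted p = 0.0021) was -0.20 against Sham AL and -1.65 against BWm, and 3 of the 6 RYGB arrays lay below all sham arrays. Retsat, which saturates retinol, was at -0.64 ± 0.10, made of -0.15 and -1.14, with 0 of 6 RYGB arrays below all sham arrays. Such genes met the rule on their means, and their difference was nearly all from BWm.

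Of 31 bile acid genes, 1 was higher (3.23%, against 3.25% of all genes) and 2 were lower (6.45%, against 1.26%). Cyp7a1, the rate-limiting enzyme of bile acid synthesis, was at 0.10 ± 0.27 (adjusted p = 0.91), Cyp8b1, which sets the bile acid mix, at -0.52 ± 0.31 (adjusted p = 0.44), Nr0b2, the repressor that bile acids induce, at -0.01 ± 0.23, and Abcb11, the bile salt pump, at 0.16 ± 0.12. Other genes chosen for their role that were not called were Srebf1 (-0.47 ± 0.32), Pck1 (-0.21 ± 0.09) and Igf1 (-0.15 ± 0.11). Complement and coagulation genes gave 0 called of 29, and subunits of the respiratory chain 1 of 36.

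At the edges of the rule, Evl was the member with the highest adjusted p (0.04997) and Ptch1 (0.05001) the first gene left out. S100a10 was the member nearest to a sham mean, with 9.447 in RYGB against 9.437 in Sham AL. The averaged contrast also called 10 genes whose RYGB mean lay between the sham means, which are no members. Among them were Acot1, an acyl-CoA thioesterase (-1.15 ± 0.28, made of 0.07 against Sham AL and -2.37 against BWm), the metallothionein gene Mt1 (0.64 ± 0.16, made of 1.31 and -0.04) and Smpd3, a sphingomyelinase (0.48 ± 0.12, made of -0.05 and 1.01). In each of these 3 the sham groups differed from each other (adjusted p = 0.0016, 0.002 and 0.0012).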

How the data were processed

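Liver RNA of 15 mice (6 RYGB, 5 Sham AL, 4 BWm) was hybridised to Affymetrix whole-transcript arrays for the mouse (Gene 2.0 ST), 1 per animal. The deposited log2 values were made by the authors with RMA in Affymetrix Expression Console 1.4.1.46, per the series design text and the submitters' processing notes, and no further normalization was applied. RMA sets all arrays to a shared distribution, so a change in total RNA cannot be seen. Of 41345 transcript clusters, 23521 had 1 gene symbol, 1814 several and 16010 none, by GEO's platform annotation; the brightest cluster per symbol was kept, giving 22180 genes. A group-means model was fitted over all genes and arrays with limma 3.58.1 (lmFit, eBayes, R 4.3.3). The contrast was RYGB minus the average of both sham means, with Benjamini-Hochberg adjustment over all genes. Adjusted p values in the text are from that fit, except where fits that left out an array are named. The stricter rule adjusted the larger p of both single comparisons of that fit. Tables and plots used Python 3.11.15, pandas 2.3.3, numpy 2.4.6 and matplotlib 3.10.9. Promoter windows are from RefSeq (GRCm38.p6). On simulated data, 71.6% of 1.5-fold, 94% of 2-fold and 100% of 4-fold changes were recovered, with 5 false calls. The simulation gave both sham groups the same mean and held no array that stood apart. Between the real sham groups 2.84% of genes differed, so these values do not give the error of the calls above.

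The naming rule took the 15 largest rises and 15 largest falls among members. It added the 4 genes of smallest p, called or not, of each pathway list with a called gene. A list of genes chosen for their role in metabolism, iron and stress completed it. Predicted, receptor and Mup genes were left out of the largest changes. Not every gene of the rule is described above, for example Serpina4-ps1 (log2 -3.19 ± 0.57), Cidec (-1.4 ± 0.34), Ly6d (1.91 ± 0.39) and Cbr3 (1.74 ± 0.32). Any other gene printed was chosen after its values were seen. The members and lists were chosen with earlier results of these data known. The labels give replicate numbers without saying that a number links mice. Same-numbered arrays of different groups had residual correlations of -0.17 to 0.19, with 4 of 13 pairs over 0.1. Other pairs had -0.268 to 0.194, with 13 of 61 over 0.1. Arrays were not paired in the model, though so few pairs cannot show that no link exists. Alternatives covered scaling, filters, the weighting of sham groups, blocks, the methods' analysis of variance and each array left out. The authors' own comparison lists were not used here.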

Additional observations from a re-analysis of the deposited data

Results flagged for a closer look

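For 188 genes, each of the 3 groups was examined for 1 array far from the others by Dixon's test. Of 564 such groups 37 (6.56%) held one, where chance gives about 1 in 20. That share cannot be read against chance, since some genes were picked with their values in view (Cyp11b1 and Ucp1 for their level in Sham AL replicate 4), and genes not printed were dropped after such arrays had been counted. No explanation was weighed.

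Sham AL replicate 4 held 8 of them. It was highest for the adrenal enzyme gene Cyp11b1 (10.37 against 2.39 to 3.1 in the rest of its group), for Ucp1 of brown fat (11.89 against 3.51 to 4.54), Pgd (9.01), Sqle (5.66), Gars (8.16), Rrm1 (6.03) and Ntrk2 (5.51), and lowest for Igf1 (9.51). In Sham AL replicate 5, Slc22a5 (7.01) and Ndufb3 (7.03) were highest, and Spink1 was lowest in Sham AL replicate 1 (3.2).

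RYGB replicate 1 held 6. It was lowest for Slc7a11 (4.29 against 6.08 to 6.98), Pgd (8.12 against 8.8 to 9.07), Txnrd1 (8.55), Ssr2 (9.97) and Elovl1 (7.47), and highest for Dsg1c (6.72 against 4.77 to 5.1). RYGB replicate 5 was lowest for Mfsd2a (6.99 against 8.62 to 9.4), Usp18 (7.4) and Pck1 (11.25). Mcm2 was highest in RYGB replicate 2 (6.35). RYGB replicate 3 was highest for Psmd14 (6.56) and lowest for Angptl4 (8.23), and RYGB replicate 4 highest for Sdhc (9.0) and lowest for Rrm1 (5.64).

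In BWm replicate 1, Nupr1 (6.14) and Manf (4.68) were highest and Ppara lowest (9.0). BWm replicate 2 was lowest for Ghr (8.13), Cyp2c37 (10.42) and Cyp8b1 (8.85 against 9.57 to 9.61). BWm replicate 3 was lowest for Dsg1c (6.25) and highest for Sdhc (9.54) and Gclc (9.8). BWm replicate 4 was highest for Cyp2b13 (7.89 against 4.4 to 4.92) and Pdk1 (7.6) and lowest for Pgm2 (5.23).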

How the results depend on the processing

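The 721 higher and 279 lower members became 70 and 17 when each gene had to pass against both sham groups, and 305 and 128 under the methods' one-way analysis of variance with its own p and 1.5-fold limits. They stayed within 1.5 times under the other alternatives to scaling, filter, prior, weights and sham weighting. Leaving out single arrays gave 484 to 767 higher and 182 to 342 lower. The stricter counts of 70 and 17, an alternative set of fits added after seeing the data, became 111 and 31 among genes with a mean of at least 5, 23 and 7 under analysis of variance with Benjamini-Hochberg adjustment, and 27 lower with animal numbers under 50 as a block. They ranged from 33 to 121 higher and 7 to 33 lower without single arrays. Animal numbers under 50 were those of 3 RYGB mice (replicates 1, 2 and 3), 1 Sham AL mouse and 0 BWm mice. That block was therefore unbalanced across the groups, and whether animal numbers mark a batch was not tested. With the replicate number as a block, members were 418 higher and 141 lower, and 11 and 4 under the stricter rule. Whether these numbers link mice is not stated, so the meaning of a call lost under this block is not known. No called gene named in the text or by the naming rule changed direction in any alternative, and 45 of 144 passed the stricter rule. The causes of these shifts were not tested. Signals near the array medians limit the folds of dim genes such as Slc7a11 and Spink1.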
